A study of Mus musculus with 2 samples.

Results

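The nuclear genes for respiratory complexes II to V were examined in bulk RNA-seq of mouse hindlimb muscle, in 1 library labelled SRSF1-MKO and 1 wild-type (WT) library. Both came from C57BL/6 animals at postnatal day 30. Members were the rows typed mRNA in the deposited table whose symbols name a subunit or assembly factor of succinate dehydrogenase (Sdha to Sdhd, Sdhaf), the cytochrome bc1 complex (Uqcr, Cyc1), cytochrome c (Cycs), cytochrome c oxidase (Cox5, Cox6c, Cox7b, Cox7c, Cox10 to Cox19, Surf1, Sco1, Sco2) or ATP synthase (Atp5). This gave 49 of 44787 gene rows, chosen by name alone; the tissue isoforms of complex IV were not among them. SRSF1 is a serine/arginine-rich splicing factor. The sources used here give neither the allele nor the driver of the deletion, nor the sex and number of animals behind each library, and the labels do not spell out MKO.

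Complexes II to V carry out most of the electron transfer and ATP synthesis of mitochondria. Complex II passes electrons from succinate to ubiquinone, complex III passes them on to cytochrome c, complex IV reduces oxygen, and complex V uses the resulting proton gradient to make ATP. All complex II subunits are encoded in the nucleus, whereas complexes III, IV and V combine nuclear subunits with a few subunits made from mitochondrial DNA. Oxidative muscle fibres hold more of these complexes than fast glycolytic fibres do.

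Gene coordinates are those of the deposited table, on build mm10. Levels are FPKM, a read count scaled by transcript length and by library size, so that levels of different genes can be set side by side. The FPKM values imply totals of 21350284 reads for SRSF1-MKO and 23146640 reads for WT. With 1 library per group no difference has a replicate check and no test between genotypes was possible. The intervals given are exact binomial (Clopper-Pearson) 95% intervals of the FPKM ratio of SRSF1-MKO over WT, and cover the counting of reads only, not the variation between animals. Srsf1 itself was at 6.70 FPKM in the library labelled SRSF1-MKO and 13.7 FPKM in WT. The submitters' notes contradict each other on which table column belongs to which sample, so each column was assigned by the genotype its name carries, and every direction given rests on that. Of the 5 fibre markers Acta1, Ckm, Tnnt3, Mylpf and Atp2a1, all stood at 1806 FPKM or more in both libraries; these genes define skeletal muscle fibres, the labelled tissue.

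The 34 nuclear subunits in the list, counting cytochrome c, were all at a higher level in SRSF1-MKO than in WT. So were 6141 of the 9468 mRNA rows that averaged at least 1 FPKM, and 544 of the 713 that averaged at least 50 FPKM. A member was called higher or lower at 1.5-fold or more on the log2(FPKM + 1) scale, among the 48 members whose mean over both libraries reached 1 FPKM; Sco2 was the 1 member below that mean. By this rule 28 of 48 members were higher in SRSF1-MKO, against 22.3% of all 9468 mRNA rows that passed the same filter. None of the 48 was lower by 1.5-fold, against 8.28% of all mRNA rows, and the 20 members between the limits ranged from -0.23 (Cox16) to 0.57 (Atp5g2) in log2 ratio. The median log2 ratio was 0.71 over the members and 0.19 over all mRNA rows.

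Most of these subunits are abundant, and abundant transcripts as a whole were higher in SRSF1-MKO. Among the 713 mRNA rows that averaged at least 50 FPKM, the median log2 ratio was 0.50, 45.0% were higher and 10.1% were lower. The 34 members at that level had a median of 0.78, with 23 higher and none lower. The excess of the members over abundant mRNA rows was therefore smaller than that over all rows. With the all-mRNA median of 0.19 set to 0, 22 of 48 members remained at or above 1.5-fold and none was lower, beside 13.9% of mRNA rows higher and 13.2% lower. On that scale 18 of the 34 abundant members were higher, beside 217 of the 713 abundant mRNA rows higher and 99 lower. At 2-fold, 12 of 48 members were higher, against 8.24% of all mRNA rows: Sdhd, Uqcrh, Uqcrq, Uqcr10, Cox5b, Cox6c, Cox7c, Cox10, Cox19, Atp5g1, Atp5k and Atp5l. Among those averaging at least 50 FPKM, 9 of 34 members were higher by 2-fold, against 144 of 713 mRNA rows. As a share of the summed FPKM of all mRNA rows, the members accounted for 3.67% in SRSF1-MKO and 2.01% in WT.

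**Figure D1:**
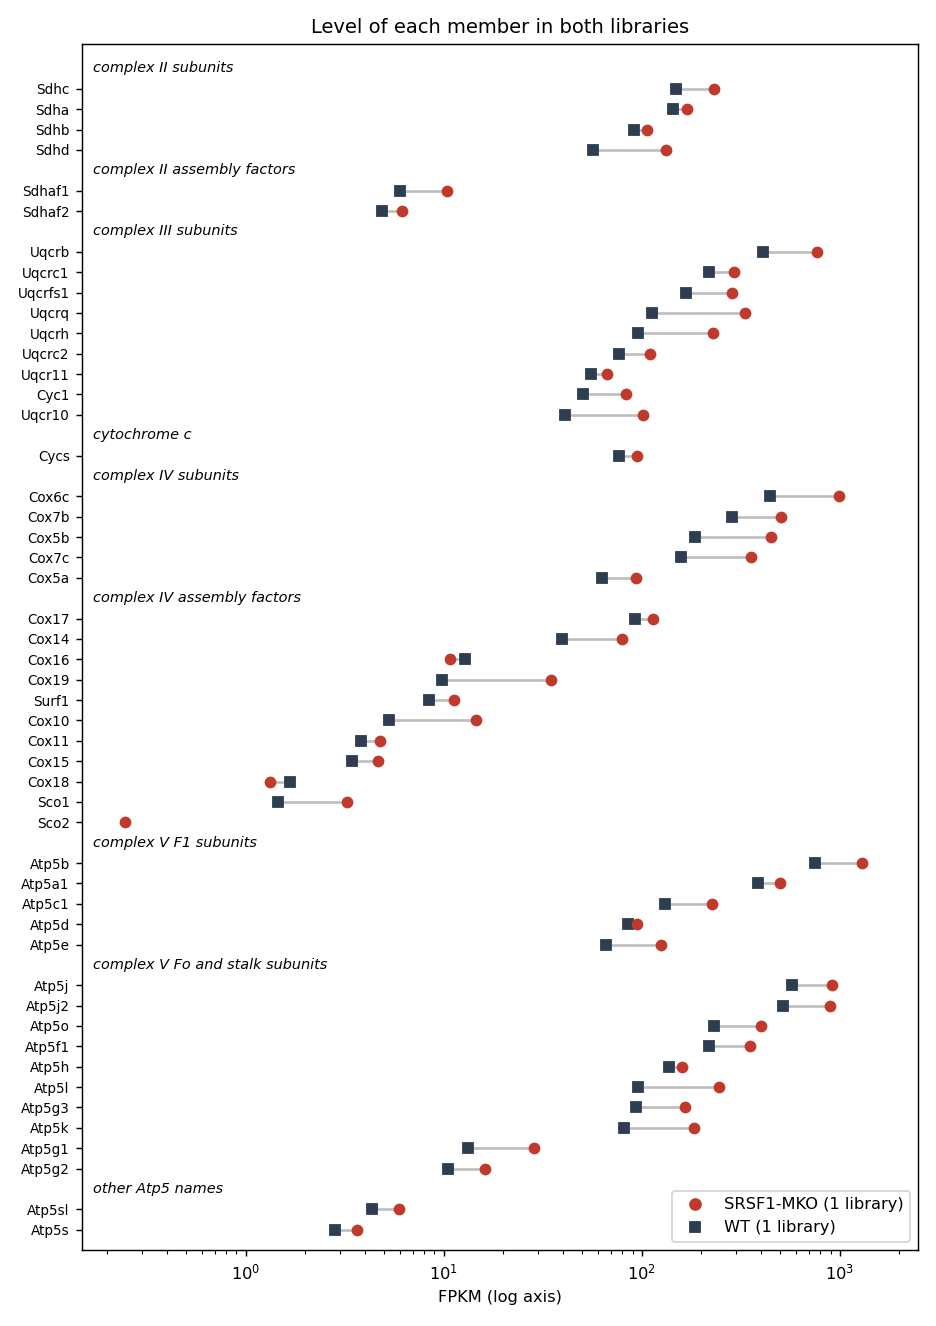
Level of each of the 49 members in FPKM on a log axis, with 1 circle for the SRSF1-MKO library and 1 square for the WT library, ordered within each group by the WT level. The circle lies right of the square for all members but Cox16 and Cox18; Sco2 has no square because it is listed at 0 FPKM in WT.

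**Figure D2:**
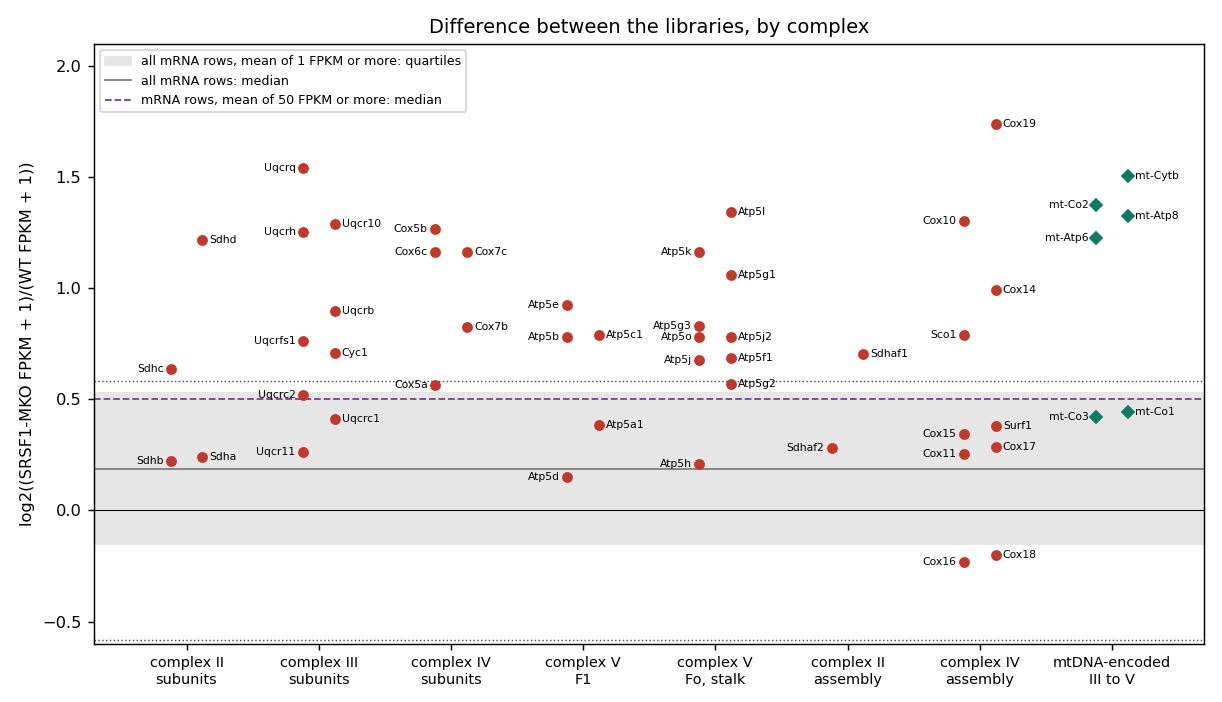
Log2 ratio of SRSF1-MKO over WT on the log2(FPKM + 1) scale for members averaging at least 1 FPKM (circles, by complex; Cycs, Atp5s and Atp5sl are not drawn) and for the mitochondrially encoded subunits (diamonds). The band and the grey line give the quartiles and median of all mRNA rows. The dashed line gives the median of rows averaging at least 50 FPKM, and the dotted lines 1.5-fold. Among the circles, the listed complex IV subunits lie highest as a group, and Sdha, Sdhb, Uqcr11, Atp5d and Atp5h lie near the grey line.

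Promoter sequence was read for the members because many of them share regulators: the nuclear respiratory factor NRF-1, the ETS factor GABP (also called NRF-2), YY1 and the estrogen-related receptors (ERR) are known to act on genes of the respiratory chain. The windows span 250 bases before to 50 bases after each annotated start, from RefSeq on build GRCm38.p6, and 40 of the 49 members had a window in that table. Each of 4 motifs was searched on both strands. The NRF-1 core GCGCANGCG occurred in 12 of 40 members (30.0%), against 7.03% of all 27025 genes with a window, 16.7% of those whose mRNA row passed the filter and 19.4% of those averaging at least 50 FPKM. The ETS core CCGGAAG occurred in 17 of 40 members (42.5%), against 9.93%, 21.6% and 21.7%. The YY1 core AANATGGC occurred in 8 members (20.0%), against 6.96%, 11.1% and 13.4%, and the ERR core AAGGTCA in 5 members (12.5%), against 5.38%, 3.84% and 7.24%. A match is a description of the letters and not evidence of binding.

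The members with the ERR core were Sdhd, Atp5e, Atp5g3, Atp5k and Atp5l. All 5 were higher by 1.5-fold or more, against 22.3% of all and 45.0% of abundant mRNA rows. Their log2 ratios lay between 0.83 and 1.35, with a median of 1.16. Their longest coding sequences were short, from 52 (Atp5e) to 159 codons (Sdhd). Of abundant mRNA rows with at most 100 codons, 39 of 52 were higher, and of those with 100 to 200 codons, 56.0%. The 34 filtered members with a window but no ERR core had a median of 0.68, with 18 called higher, and a range from -0.23 to 1.74, which contains the whole range of the 5. No test of this difference was made, and the share called higher among all mRNA rows with the ERR core was not computed. Members that matched none of the 4 motifs ranged from 0.15 (Atp5d) to 1.74 (Cox19) in log2 ratio. They included Uqcr10 (1.29), Cox5b (1.27), Cox7c (1.16) and Atp5g1 (1.06). For the other motifs, the median log2 ratio was 0.68 with and 0.76 without the NRF-1 core, 0.70 with and 0.77 without the ETS core, and 0.74 with and 0.76 without the YY1 core. Sdhd, Atp5k and Atp5l were the 3 members that matched the NRF-1, ETS and ERR cores together. Their windows follow, with matched letters in capitals on either strand. Those of Sdha and Atp5h are printed after them. Both hold the NRF-1 core (Atp5h also the ETS core) and differed little between the libraries. Members without the ERR core and with ratios as large, such as Uqcr10, Cox5b and Cox19, are not printed. A link between any core and the ratio was not tested. The windows lie at chr9:50603800-50604099, chr5:108434350-108434649, chr9:44920693-44920992, chr13:74350191-74350490 and chr11:115419870-115420169, all on the minus strand, and are written 5′ to 3′ in the direction of transcription.
Sdhd: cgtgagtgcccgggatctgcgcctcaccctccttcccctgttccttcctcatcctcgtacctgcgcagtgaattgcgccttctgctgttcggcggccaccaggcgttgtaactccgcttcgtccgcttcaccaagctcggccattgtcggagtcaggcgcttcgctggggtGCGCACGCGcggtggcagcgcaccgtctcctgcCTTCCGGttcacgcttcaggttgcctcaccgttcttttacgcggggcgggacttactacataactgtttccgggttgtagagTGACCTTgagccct
Atp5k: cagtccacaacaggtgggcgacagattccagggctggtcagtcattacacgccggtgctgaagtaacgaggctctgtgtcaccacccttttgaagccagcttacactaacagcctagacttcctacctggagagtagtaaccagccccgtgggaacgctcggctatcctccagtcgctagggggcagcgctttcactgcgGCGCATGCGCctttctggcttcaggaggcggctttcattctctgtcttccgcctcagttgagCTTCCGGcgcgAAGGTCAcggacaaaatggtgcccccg
Atp5l: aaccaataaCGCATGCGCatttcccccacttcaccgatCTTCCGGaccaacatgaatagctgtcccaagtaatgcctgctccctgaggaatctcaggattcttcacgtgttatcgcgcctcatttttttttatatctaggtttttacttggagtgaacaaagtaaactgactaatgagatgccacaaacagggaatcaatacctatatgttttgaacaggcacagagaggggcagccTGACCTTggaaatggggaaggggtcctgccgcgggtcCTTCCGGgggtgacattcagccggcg
Sdha: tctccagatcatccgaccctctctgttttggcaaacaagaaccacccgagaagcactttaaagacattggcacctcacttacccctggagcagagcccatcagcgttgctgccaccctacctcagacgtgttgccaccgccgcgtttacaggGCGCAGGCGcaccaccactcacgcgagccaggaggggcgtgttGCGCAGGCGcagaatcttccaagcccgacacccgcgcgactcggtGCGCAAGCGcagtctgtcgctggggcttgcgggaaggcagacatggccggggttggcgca
Atp5h: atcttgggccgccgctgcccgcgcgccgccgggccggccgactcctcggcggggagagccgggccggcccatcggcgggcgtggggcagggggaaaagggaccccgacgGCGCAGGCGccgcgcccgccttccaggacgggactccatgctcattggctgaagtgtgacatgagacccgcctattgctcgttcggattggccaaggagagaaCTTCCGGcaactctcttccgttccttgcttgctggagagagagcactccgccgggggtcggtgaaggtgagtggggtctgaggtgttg

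In the Sdhd window the ERR core lies downstream of the start, read on the opposite strand, and the NRF-1 and ETS cores lie upstream of it. In Atp5k the ETS and ERR cores both follow the start. The Sdha window holds 3 NRF-1 cores and no other match.

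In complex II the catalytic subunits Sdha and Sdhb had smaller ratios than the membrane subunits Sdhc and Sdhd. Sdha and Sdhb also have the longer coding sequences, with 664 and 282 codons against 169 and 159. Abundant mRNA rows of longer coding sequence were less often higher, as given below. Sdha, the flavoprotein that oxidises succinate, was at 170.4 FPKM in SRSF1-MKO and 144 FPKM in WT, a ratio of 1.18 (interval 1.15 to 1.22). Sdhb, the iron-sulphur subunit, was at 107 and 91.2 FPKM in SRSF1-MKO and WT, the smallest ratio of the complex at 1.17 (1.10 to 1.24). Both were close to the all-mRNA median. Sdhc, an anchor subunit in the inner membrane, was at 231 FPKM in SRSF1-MKO and 149 FPKM in WT, a ratio of 1.56 (1.496 to 1.62) that was within 1.5-fold with the all-mRNA median set to 0. Sdhd (chromosome 9, 50596340 to 50603849, minus strand), the other anchor subunit, was at 133 FPKM in SRSF1-MKO and 56.6 FPKM in WT, a ratio of 2.35 (2.21 to 2.49). In WT the Sdhd mRNA was thus the lowest of the 4, and in SRSF1-MKO it was above that of Sdhb. The assembly factor Sdhaf1, which serves iron-sulphur insertion, was higher at 10.5 and 6.03 FPKM in SRSF1-MKO and WT, and Sdhaf2, which serves flavin attachment to Sdha, was within 1.5-fold at 6.14 and 4.87 FPKM.

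Complex III had 6 of 9 subunits higher by 1.5-fold, against 22.3% of all and 45.0% of abundant mRNA rows, with a median log2 ratio of 0.76. With the all-mRNA median set to 0 it had 4 of 9, as Uqcrfs1 and Cyc1 were then within 1.5-fold. On that scale 13.9% of all and 217 of 713 abundant mRNA rows were higher. The large core proteins Uqcrc1 and Uqcrc2 had the smallest ratios apart from Uqcr11. Uqcrc1 was at 292 FPKM in SRSF1-MKO and 219 FPKM in WT (ratio 1.33, 1.29 to 1.37), and Uqcrc2 at 111 and 76.9 FPKM. The electron-carrying subunits encoded in the nucleus were among the 6: the Rieske iron-sulphur protein Uqcrfs1 was at 285 FPKM in SRSF1-MKO and 168 FPKM in WT, and cytochrome c1 (Cyc1) at 83.3 and 50.6 FPKM. Uqcrb, the most abundant of the 9, was at 769 FPKM in SRSF1-MKO and 412 FPKM in WT, a ratio of 1.87 (1.82 to 1.91).

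The small accessory subunits of complex III showed the highest and the lowest ratio of the complex. Uqcrq (chromosome 11, 53428952 to 53430874, minus strand) was at 332 FPKM in SRSF1-MKO and 113 FPKM in WT, a ratio of 2.93 (2.75 to 3.12). Uqcrh, the hinge protein that meets cytochrome c1, was at 229 and 95.7 FPKM in SRSF1-MKO and WT, and Uqcr10 at 101 and 40.9 FPKM. Uqcr11 differed from these, at 66.5 FPKM in SRSF1-MKO and 55.3 FPKM in WT, a ratio of 1.203 (1.07 to 1.35). Its interval does not meet those of the other 3 small subunits. Cytochrome c (Cycs), the mobile carrier between complexes III and IV, was within 1.5-fold at 94.5 and 76.9 FPKM in SRSF1-MKO and WT, a ratio of 1.23. Its FPKM values did not resolve into whole reads, and reads it may share with near-identical copies elsewhere in the genome make its level uncertain.

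Among the listed subunits, those of complex IV had the largest differences of the 4 complexes, by median and by sum. The list holds 5 of them and leaves out the tissue isoforms. Of these, 4 were higher by 1.5-fold, against 22.3% of all and 45.0% of abundant mRNA rows. Their median log2 ratio was 1.16. Cox6c, Cox7b and Cox7c have at most 100 codons, a length at which 39 of 52 abundant mRNA rows were higher. Cox5b (chromosome 1, 36691487 to 36693388, plus strand), on the matrix side of the enzyme, had 449 FPKM in SRSF1-MKO and 186 FPKM in WT, a ratio of 2.41 (2.33 to 2.50). Cox5a, which forms the matrix side of the enzyme together with Cox5b, was at 93.4 and 62.8 FPKM in SRSF1-MKO and WT, a ratio of 1.49 (1.37 to 1.62). The interval of Cox5a lies below that of Cox5b, and Cox5a was just under the limit for a call. The 3 small membrane-spanning subunits were all higher. Cox6c was at 993 FPKM in SRSF1-MKO and 443 FPKM in WT, a ratio of 2.24 (2.17 to 2.32). Cox7b was at 506 and 285 FPKM in SRSF1-MKO and WT, with an interval of 1.72 to 1.83, which lies below that of Cox6c. Cox7c was at 356 FPKM in SRSF1-MKO and 158 FPKM in WT.

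The 11 assembly factors of complex IV were less uniform than its subunits. Of the 10 measured members, 4 were higher, against 22.3% of all mRNA rows, and the median log2 ratio was 0.36. That median depended on the processing: it was 0.69 with a filter at 5 FPKM, 0.57 with only members of whole reads and 0.18 with the all-mRNA median set to 0. The spread was wide, from Cox16 to Cox19. Cox19 (chromosome 5, 139337822 to 139345166, minus strand), a small protein of the intermembrane space with a part in copper delivery, had the largest ratio of all members, at 34.9 FPKM in SRSF1-MKO and 9.76 FPKM in WT, a ratio of 3.57 (3.01 to 4.26). Cox10, the enzyme of the first step in making heme A, was at 14.6 FPKM in SRSF1-MKO and 5.31 FPKM in WT (ratio 2.74, 2.42 to 3.11). Cox15, which carries out the next step of the same pathway, was at 4.65 and 3.45 FPKM, a ratio of 1.35 (1.18 to 1.55), whose interval does not overlap that of Cox10. Cox14, which binds newly made mitochondrial Cox1, was at 79.6 and 39.5 FPKM in SRSF1-MKO and WT, a ratio of 2.02 (1.83 to 2.22).

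The copper chaperones differed from each other. Cox17, which hands copper to Sco1 and Cox11, was at 114 FPKM in SRSF1-MKO and 93.1 FPKM in WT (ratio 1.22, 1.14 to 1.31), and Cox11 was at 4.77 and 3.84 FPKM with an interval (0.969 to 1.58) that includes 1. Sco1, which delivers copper to mitochondrial Cox2, was called higher at 3.24 and 1.45 FPKM in SRSF1-MKO and WT. The smallest whole pair, 37 and 18 reads, gave it the wide interval 1.24 to 4.16. That pair implies a length of 535 bases, fewer than its longest coding sequence of 289 codons holds. Its reads may therefore be more and its interval narrower. Sco2 was at 0.245 FPKM in SRSF1-MKO and stood at 0 in the WT column, in which 3 reads would amount to 0.103 FPKM. Surf1, which helps early assembly, was within 1.5-fold at 11.3 and 8.48 FPKM. Cox16 and Cox18 were the only members with a lower value in SRSF1-MKO. Cox16 was at 10.7 FPKM in SRSF1-MKO and 12.8 FPKM in WT (ratio 0.839, 0.768 to 0.915). Cox18, which helps insert mitochondrial Cox2, was at 1.34 and 1.69 FPKM. Its smallest whole pair, 19 and 26 reads, gave an interval of 0.414 to 1.49. That pair also implies fewer bases (666) than its longest coding sequence of 332 codons holds. Whether its interval includes 1 is therefore uncertain.

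Complex V had the most abundant members. Of its 15 subunits, 11 were higher by 1.5-fold, against 22.3% of all and 45.0% of abundant mRNA rows. The median log2 ratio was 0.78. With the all-mRNA median set to 0, complex V had 9 of 15 higher, as Atp5f1 and Atp5j were then within 1.5-fold. On that scale 13.9% of all and 217 of 713 abundant mRNA rows were higher. In the catalytic F1 head, the beta subunit Atp5b (chromosome 10, 128083307 to 128090388, plus strand) stood at 1289 FPKM in SRSF1-MKO and 749 FPKM in WT, a ratio of 1.72 (1.70 to 1.74). It ranked 26 among all mRNA rows in SRSF1-MKO and 32 in WT. The alpha subunit Atp5a1, which alternates with beta in the head at equal number, was at 502 and 385 FPKM in SRSF1-MKO and WT, a ratio of 1.30 (1.28 to 1.33), which lies below that of beta beyond counting error. In the central stalk, gamma (Atp5c1) was at 228 and 131 FPKM and epsilon (Atp5e) at 126 and 65.8 FPKM in SRSF1-MKO and WT. Delta (Atp5d), their partner in the stalk, had the smallest difference of all the subunits of complex V, at 94.7 FPKM in SRSF1-MKO and 85.2 FPKM in WT (ratio 1.11, 1.04 to 1.19), and its log2 ratio of 0.15 became -0.04 when the all-mRNA median was set to 0.

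The membrane part and side stalk of complex V had 8 of 10 members higher, against 22.3% of all and 45.0% of abundant mRNA rows. The small membrane subunits e and g, which help the enzyme form dimers, had the largest ratios. Subunit g (Atp5l) was at 246 FPKM in SRSF1-MKO and 96.2 FPKM in WT, a ratio of 2.56 (2.49 to 2.63), and subunit e (Atp5k) was at 184 and 81.7 FPKM, a ratio of 2.26 (2.04 to 2.50). Both are among the 3 genes with NRF-1, ETS and ERR cores in the windows printed above, and a link of these cores to the ratio was not tested. In the side stalk, OSCP (Atp5o), which joins the stalk to the head, was at 399 and 232 FPKM in SRSF1-MKO and WT, subunit b (Atp5f1) at 354 and 219.5 FPKM, and F6 (Atp5j), after Atp5b the most abundant, at 920.1 and 575 FPKM (ratio 1.60, 1.57 to 1.63). Subunit d (Atp5h), a further part of that stalk, was within 1.5-fold, at 159 FPKM in SRSF1-MKO and 137 FPKM in WT (ratio 1.16, 1.11 to 1.21). Subunit f (Atp5j2) was at 892 and 518 FPKM.

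Subunit c, which forms the rotating ring, is made from 3 genes that encode the same mature protein behind different import signals. Atp5g3 was the most abundant, at 166 FPKM in SRSF1-MKO and 93.2 FPKM in WT (ratio 1.78, 1.68 to 1.90), and supplied 78.7% of their summed FPKM in SRSF1-MKO and 79.6% in WT. Atp5g1 was at 28.8 and 13.3 FPKM in SRSF1-MKO and WT, a ratio of 2.17 (2.04 to 2.31). The reads recovered for Atp5g1 were 2966 and 1483. They and the interval are less certain, because the recovered length of 4830 bases exceeds the span of its deposited coordinates. The share of Atp5g1 in the summed FPKM was 13.6% in SRSF1-MKO and 11.3% in WT. Atp5g2 was at 16.2 and 10.6 FPKM, a ratio of 1.53 (1.35 to 1.74) that did not reach the limit on the log2(FPKM + 1) scale. The order of the 3 genes was the same in both libraries, and since their coding sequences are close, reads divided between them make the single levels less certain than their sum.

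Atp5s and Atp5sl carry the Atp5 name, but RefSeq lists them under Dmac2l and Dmac2, and they are not structural subunits of the enzyme. Both were low, at 3.66 and 5.94 FPKM in SRSF1-MKO against 2.84 and 4.34 FPKM in WT, and both were within 1.5-fold.

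Summed over the members of a complex, the level of complex II subunits was 641 FPKM in SRSF1-MKO and 440.3 FPKM in WT, a ratio of 1.46. The sum for complex III was 2269 and 1232 FPKM, a ratio of 1.84, and that for the 5 complex IV subunits was 2398 and 1136 FPKM, a ratio of 2.11. Complex V came to 5606 FPKM in SRSF1-MKO and 3394 FPKM in WT, a ratio of 1.65. The order of the complexes by this ratio was IV, III, V and II, whereas by median log2 ratio complexes V (0.78) and III (0.76) were nearly equal and in the other order. The sums weigh abundant members most, so that Cox6c, Uqcrb and Atp5b count more than the rest.

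**Figure D3:**
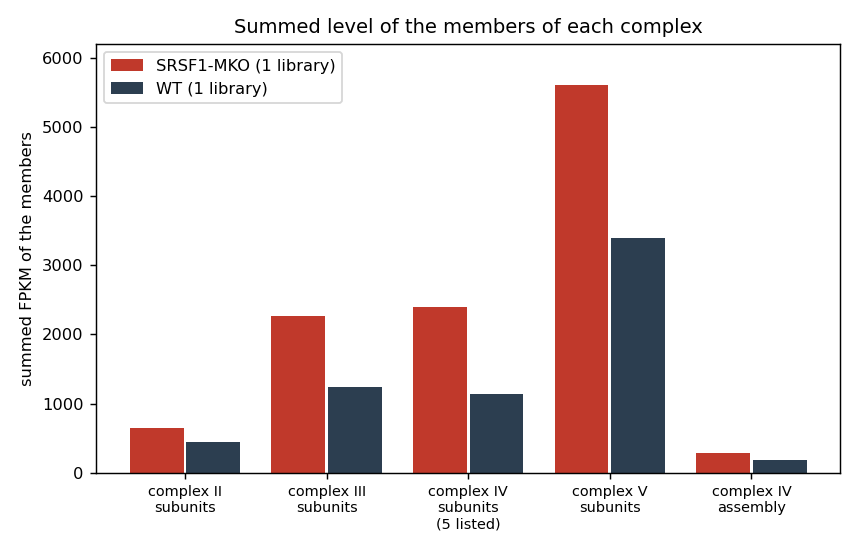
Summed FPKM of the members of each complex, with the SRSF1-MKO library on the left of each pair of bars and the WT library on the right; there are no error bars because each bar is 1 library. The SRSF1-MKO bar is the taller in every pair, by a ratio between 1.46 for complex II and 2.11 for complex IV.

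Among the subunits and cytochrome c, the shortest coding sequences had the larger ratios and the longest the smaller ones. Of the 10 subunits with at most 100 codons in GENCODE M21, 9 were higher by 1.5-fold and the median log2 ratio was 1.16, with Uqcr11 the exception. Of mRNA rows of that length, 56.6% were higher, and of the abundant ones 39 of 52. The 5 with more than 400 codons (Sdha, Uqcrc1, Uqcrc2, Atp5a1 and Atp5b) had a median of 0.41, and Atp5b alone was called higher. Of mRNA rows of that length, 14.9% were higher, and of the abundant ones 30.0%. The classes between did not follow the same order. The 13 with 100 to 200 codons had a median of 0.68 with 8 higher, against 40.7% of all and 56.0% of abundant mRNA rows of that length. The 6 with 200 to 400 codons had a median of 0.73 with 5 higher, against 25.8% and 44.7%. Across the 34 subunits and cytochrome c, Spearman's rho between codons and log2 ratio was -0.55; these points come from the same 2 libraries and are not independent. The same trend was present in the whole table. The median log2 ratio of mRNA rows with at most 100 codons was 0.67 over 196 rows, and 0.89 over the 52 of them that averaged at least 50 FPKM. For rows with more than 400 codons it was 0.10 over 5277 rows and 0.22 over 240 rows. The rank correlation was -0.25 over 9374 mRNA rows and -0.36 over the 711 abundant ones. The members therefore share this trend with other mRNA rows of short and long coding sequence in the 2 libraries.

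**Figure D4:**
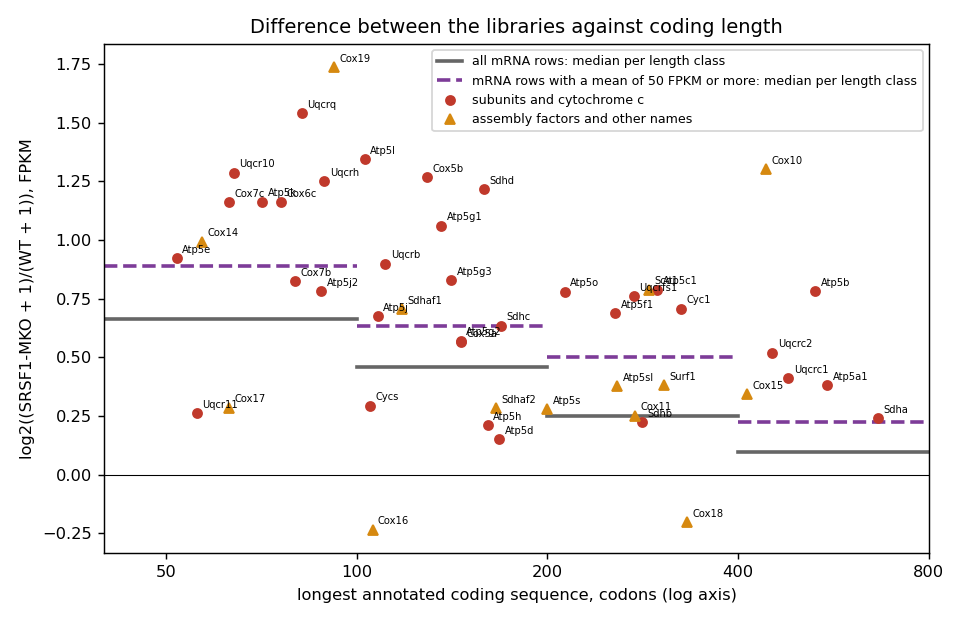
Log2 ratio of SRSF1-MKO over WT on the log2(FPKM + 1) scale against the longest annotated coding sequence in codons (log axis), for subunits and cytochrome c (circles) and for assembly factors and other names (triangles). Horizontal lines give the median of all mRNA rows (solid) and of rows averaging at least 50 FPKM (dashed) in 4 length classes; both the members and the lines are higher at short lengths.

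The mitochondrially encoded partners were at far higher FPKM than the nuclear subunits and did not differ evenly. Cytochrome b of complex III (mt-Cytb) was at 14189 FPKM in SRSF1-MKO and 4992 FPKM in WT, a ratio of 2.84. In complex IV, mt-Co2 was at 31653 and 12185 FPKM in SRSF1-MKO and WT, a ratio of 2.60, while mt-Co1 (29338 and 21594 FPKM) had a ratio of 1.36 and mt-Co3 (4303 and 3215 FPKM) a ratio of 1.34. In complex IV, then, the 2 mitochondrial subunits mt-Co1 and mt-Co3 had smaller ratios than each of the 5 nuclear subunits. In complex V, mt-Atp6 (18928 and 8088 FPKM in SRSF1-MKO and WT) had a ratio of 2.34 and mt-Atp8 (18286 and 7288 FPKM) of 2.51, but these genes overlap on the mitochondrial genome and reads in the overlap belong to both.

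Assembly factors and regulators of complexes III to V outside the name rule numbered 22 genes, with a median log2 ratio of 0.47. Of these, 9 were higher and 2 lower, against 22.3% higher and 8.28% lower of all mRNA rows. The higher ones included the complex III factors Uqcc1 (38.6 and 21.8 FPKM in SRSF1-MKO and WT), Uqcc2 (189 and 116.5 FPKM) and Uqcc3 (50.8 and 23.7 FPKM), and Cox20, which guards newly made mitochondrial Cox2 (135 and 56.1 FPKM). The 2 lower ones were Taco1, an activator of mt-Co1 translation, at 10.6 FPKM in SRSF1-MKO and 23.5 FPKM in WT (ratio 0.452, 0.394 to 0.518), and Lyrm7, a chaperone of the Rieske protein, at 0.666 and 1.82 FPKM. Lyrm7 reached the filter through its WT level alone. The complex V factors Atpaf1, Atpaf2 and Tmem70 were within 1.5-fold, with ratios of 1.36, 1.02 and 1.01.

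Of 8 transcriptional regulators of these genes, 2 were higher by 1.5-fold and none was lower, a share close to the 22.3% of all mRNA rows called higher. The coactivator Ppargc1a was at 11.9 FPKM in SRSF1-MKO and 3.23 FPKM in WT, a ratio of 3.68 (3.35 to 4.04), and its partner receptor Esrra (ERR alpha) at 10.5 and 5.08 FPKM, a ratio of 2.06 (1.77 to 2.40). Nrf1 was at 3.47 and 3.54 FPKM and Gabpa at 8.56 and 7.48 FPKM in SRSF1-MKO and WT. The mitochondrial transcription factor Tfam was within the limit at 17.1 and 11.8 FPKM. Nuclear subunits of complex I, the most similar group of genes, had 23 of 37 members higher and none lower, with a median log2 ratio of 0.69 beside 0.78 for the subunits of complexes II to V with cytochrome c. The shares called higher were 67.6% of those subunits and 62.2% of complex I, and no test was made between the lists.

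Markers of oxidative and slow fibres were higher in the same library. All 9 of these genes were higher by 1.5-fold, and their summed level was 4919 FPKM in SRSF1-MKO and 334 FPKM in WT, most of it Myh2 (2399 and 78.2 FPKM) and Mb (2135 and 242 FPKM). By the same rule, 22.3% of all mRNA rows were higher and 8.28% lower. The 5 fibre markers named at the start, of which Tnnt3, Mylpf and Atp2a1 are fast-fibre isoforms, summed to 28809 FPKM in SRSF1-MKO and 48316 FPKM in WT, with Ckm, Tnnt3 and Atp2a1 lower and none higher. Adipocyte markers summed to 349 and 285 FPKM in SRSF1-MKO and WT, with 4 of 6 lower. Fabp4, which endothelium also expresses, made up most of both sums (334 and 246 FPKM), and the other 5 adipocyte genes each had the lower value in SRSF1-MKO. The brown fat gene Ucp1 was at 0.0285 FPKM in SRSF1-MKO and listed at 0 in WT, with Cidea at 1.29 and 0.223 FPKM. Macrophage markers summed to 72.9 and 22.7 FPKM with 3 of 7 higher, endothelial markers to 43.6 and 65.2 FPKM with 2 of 5 lower, and fibro-adipogenic markers to 388 and 548 FPKM with 1 of 5 lower. Erythroid markers summed to 226 and 254 FPKM with none called, and cardiac markers to 3.66 and 0.601 FPKM with 1 of 3 higher and Nppa at 0 in WT. Genes under the filter could not be called: 2 macrophage, 2 cardiac, 1 adipocyte and 1 erythroid gene, and both brown fat genes. The part of these markers in the members' differences was not tested, and in bulk tissue more fibres of a type and more RNA per fibre cannot be told apart.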

How the data were processed

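The authors deposited 1 table of FPKM values with 1 column per genotype, covering 44787 gene rows; 1 emptied line is not analysed here. Per the submitters' processing notes, Bowtie and mouse build mm10 were used; no version, annotation or way of counting reads is stated in the sources used here.

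Read totals were recovered from the values: a gene with the same reads in both libraries fixes the ratio of 1 read (1.08), and the common divisor of total times length fixes the totals, 21350284 for SRSF1-MKO and 23146640 for WT. Of 19044 genes above 0 in both, 92.8% had a whole-number ratio (denominators to 3000, tolerance 1e-12). The smallest whole pair that implied a whole length of at most 1.2 times the exon union gave the reads of 39 members; reads of the other 10 (Cycs, Cox7c, Cox11, Surf1, Sco2, Atp5c1, Atp5f1, Atp5g2, Atp5h and Atp5o) are approximate, from the exon-union length. This recovery was tested on simulated data in which the exact length of each gene was given, whereas the lengths the authors used are not known here. The length recovered for Atp5g1, 4830 bases, is longer than the span of its deposited coordinates, 96072793 to 96075694. Its reads are therefore less certain. The lengths recovered for Sco1 (535 bases) and Cox18 (666 bases) are shorter than their longest coding sequences, of 289 and 332 codons. Their reads may be too few and their intervals too wide. Intervals and the floor of 3 reads cover counting error only.

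Ratios are log2((SRSF1-MKO + 1)/(WT + 1)), with a pseudocount of 1 FPKM, a filter at a mean of 1 FPKM and a call at 1.5-fold. The rule gave ratio and interval to the members with the largest and smallest ratio and the 2 most abundant in WT in each complex, to any called lower, and to the subunit c genes. Ratios and intervals of other genes, such as Cox10, Cox14, Cox15, Cox17, Atp5a1, Atp5h and Atp5k, were added after their values were seen. All members are named. The members, lists and motifs were chosen with earlier results of these data known. Coding lengths are from GENCODE M21, promoters from RefSeq. Python 3.11.15, numpy 2.4.6, pandas 2.3.3 and scipy 1.17.1 were used.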

Additional observations from a re-analysis of the deposited data

How the results depend on the processing

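The count of members called higher was 28 and stayed between 22 and 30 with a pseudocount of 0.1 FPKM or none, with the all-mRNA median set to 0, with both columns scaled to the same mRNA sum, with no filter or one at 5 FPKM, and without the assembly factors (23); it was 12 at 2-fold. No member was called lower under any of these. Setting the all-mRNA median to 0 moved the median log2 ratio to 0.52 over all members, 0.25 for complex II, 0.57 for complex III, 0.98 for complex IV subunits and 0.59 for complex V, and changed the sign of Atp5d alone. Scaling to the same mRNA sum gave 0.50, 0.83, 1.23 and 0.85 for those complexes, and gave a ratio of summed FPKM of 1.83 over all members, 1.52 for complex II, 1.93 for complex III, 2.21 for complex IV subunits, 1.63 for complex IV assembly factors and 1.73 for complex V. A filter at 5 FPKM left 6 complex IV assembly factors with a median of 0.69. With only members of whole reads, a choice made after seeing the data, the medians were 0.99 for complex IV subunits, 0.57 for its assembly factors and 0.81 for complex V, and 24 of 39 members were higher. No paired analysis was possible because each group holds 1 library, and for the same reason no library could be left out. Sco2 rests on about 7 reads in SRSF1-MKO and 0 in WT. The 37 reads or fewer recovered for Sco1 and Cox18 in each library are the smallest whole pairs and may be too low.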

Other observations

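The name rule also met 4 rows that are not typed mRNA and were left out, copies of Atp5l and Atp5c1. Sdhaf3 and Sdhaf4, further assembly factors of complex II, stand in the table under older symbols and so fell outside the name rule. Sdhaf3 was at 4.77 FPKM in SRSF1-MKO and 4.79 FPKM in WT, and Sdhaf4 at 4.07 and 4.34 FPKM, with counting intervals of the ratio that include 1 for both. The complex IV factor Cmc2 was at 8.74 FPKM in SRSF1-MKO and 4.21 FPKM in WT, and Cmc1 at 14.2 and 11.5 FPKM. Usmg5, a small membrane protein that copurifies with ATP synthase, was at 221 FPKM in SRSF1-MKO and 110.0 FPKM in WT, a ratio of 2.01, and Atpif1, the inhibitor of the enzyme's reverse reaction, was at 30.7 and 21.02 FPKM, a ratio of 1.46.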
